A study of Sus scrofa with 6 samples.

Results

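Fibronectin, the CCN proteins and a handful of other matricellular proteins were described across cultured cells, labelled as immature Sertoli cells, with and without vitamin C. The set was 10 genes, sought by symbol among the 17670 genes in the table: FN1, CCN1, CCN2, CCN3, THBS1, THBS2, TNC, SPARC, TGFBI and EMILIN2. No gene in the table carried the symbol THBS2, so the values below are of 9 genes, and each of these passed the filter on low counts. The genes were chosen by the kind of protein they encode and selected on their AA2P over control fold changes in these same libraries, so those differences are given as a description, without a test.

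By their labels, the libraries came from immature Sertoli cells of fetal pig testis at 80 to 90 days of gestation. Sertoli cells nurse the germ cells inside the seminiferous tubule. AA2P cells, 3 libraries, received 250 µM AA2P (L-ascorbic acid 2-phosphate, as its sesquimagnesium salt), a vitamin C derivative that lasts in medium, after 6 h in culture. Control cells, 3 libraries, were cultured in the same medium with 10% serum. Not given in the sources used here are the length of the treatment, what the controls received in its place and the number of animals or cultures behind the libraries, so the spread between libraries of a group may be technical.

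Matricellular proteins are secreted into the extracellular matrix, where they act on cell adhesion and growth factor signalling more than they bear load. Fibronectin is a structural protein as well: cells pull its dimers into fibrils through integrins, and other matrix proteins are laid down on them. CCN1 and CCN2 are classic products of the YAP-TEAD, SRF and TGF-beta pathways, while CCN3 often opposes CCN2 in other tissues. In the testis, Sertoli cells and the peritubular cells around them build the basement membrane on which the seminiferous tubule rests.

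Library totals ran from 18747307 to 23521291 counts. Of 12701 genes tested with edgeR (quasi-likelihood, Benjamini-Hochberg adjusted p of 0.05), 3302 were called higher and 3313 lower with AA2P. Scaling by library totals, in place of TMM, gave 5727 higher and 1822 lower and shifted the median log2 fold change over tested genes to 0.17, so small differences below depend on the scaling. AA2P library 3 resembled the control libraries more than its own partners did, with a mean correlation of log2 CPM to the control libraries of 0.970, against 0.959 and 0.961 for AA2P libraries 1 and 2. Of 14 markers of the labelled cell type 7 were tested, SOX9, WT1 and AMH among them, while INHA, DHH, KITLG and NR5A1 did not pass the filter on low counts. The rest, GATA4, FSHR and CLDN11, matched no gene in the table by symbol and could not be assessed.

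The 9 genes together took 1.58%, 1.67% and 1.79% of all counts in AA2P libraries 1 to 3, against 3.995%, 4.11% and 3.94% in control libraries 1 to 3. The groups did not overlap, and the means were 1.68% ± 0.105 in AA2P and 4.01% ± 0.0882 in control cells (SD, n = 3 each). The sum in control cells was higher by 2.33 percentage points, of which FN1 made up 70.7%, CCN3 15.9%, THBS1 10.1% and EMILIN2 2.92%. Without FN1 the other genes took 0.875% ± 0.0130 in AA2P cells and 1.56% ± 0.0359 in control cells. These shares are free of the TMM scaling but depend on gene length, so they do not rank the genes by number of transcripts.

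**Figure D1:**
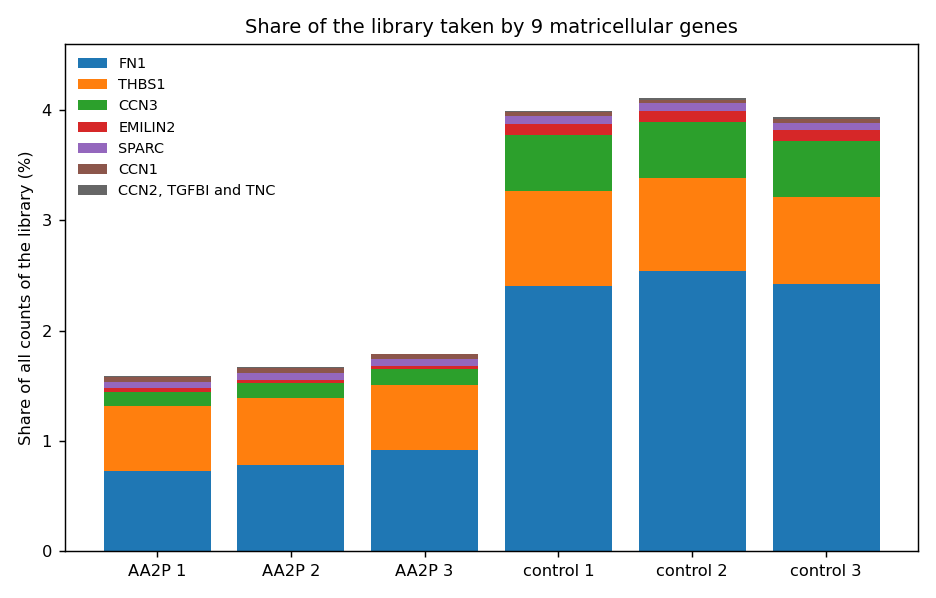
Share of all counts of each library (percent, vertical axis) taken by 9 matricellular genes in AA2P libraries 1 to 3 and control libraries 1 to 3. FN1, THBS1 and CCN3 make up most of each bar, and the bars reach 1.58% to 1.79% with AA2P and 3.94% to 4.11% in control cells.

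The makeup of the sum also differed. FN1 gave 47.8% ± 2.92 of the counts of the 9 genes in AA2P cells and 61.1% ± 0.777 in control cells, while THBS1 gave 35.8% ± 2.39 in AA2P cells and 20.8% ± 0.684 in control cells. CCN3 gave 7.98% ± 0.256 with AA2P and 12.6% ± 0.273 in control cells, and SPARC 3.69% ± 0.268 with AA2P and 1.77% ± 0.0160 in control cells (SD, n = 3 each). By counts, FN1 was the first of all genes in each control library and ranked 4, 4 and 2 in AA2P libraries 1 to 3. THBS1 ranked 7 in each AA2P library and 8 in each control library, although its own share of all counts was lower with AA2P. CCN3 ranked 45 in each AA2P library and 11 in each control library, and EMILIN2 ranked between 437 and 545 with AA2P and between 80 and 87 in control cells.

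In the fit over all genes 8 of the 9 genes were called lower and 1, CCN1, higher. The background was 26.1% of all tested genes called lower and 26.0% called higher. For all 9 genes the AA2P and control libraries did not overlap, as for 59.3% of all tested genes, and for 8 of them every AA2P library lay below every control library, as for 29.5% of all tested genes. The median log2 fold change of the 9 genes was -1.76, beside -0.000491 over the whole of the tested genes. Nothing is read from these counts, because the genes were chosen with this difference known. Log2 fold changes have AA2P in the numerator throughout, and CPM are read counts scaled to a library of fixed size with TMM factors. In bulk RNA, fewer cells that make a transcript and less of it per cell cannot be told apart.

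Fibronectin (FN1), the dimeric glycoprotein that integrins assemble into fibrils, had 6778, 7328 and 8699 CPM in AA2P libraries 1 to 3, against 25525, 26993 and 25608 CPM in control libraries 1 to 3. The highest AA2P library stood far below the lowest control library. The log2 fold change was -1.78 with a standard error of 0.07, or 3.43-fold lower with AA2P, and its share of all counts was 0.805% ± 0.0996 in AA2P cells and 2.45% ± 0.0724 in control cells (SD, n = 3 each). The AA2P libraries spread more: their coefficient of variation was 13.0%, against 3.17% in the control libraries, where counting error alone gives 0.246% and 0.138%. AA2P library 3 was the highest of its group, 0.30 log2 units above the mean of the other two.

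The CCN proteins, small secreted proteins that share a modular build and bind integrins and heparan sulphate, did not move together. CCN3 had 1222, 1255 and 1312 CPM in the AA2P libraries and 5319, 5390 and 5368 CPM in the control libraries. Its coefficient of variation was 3.61% with AA2P and 0.681% in control cells, the smallest control spread of the 9 genes. The log2 fold change was -2.09 with a standard error of 0.05, or 4.24-fold lower with AA2P. CCN2, also called connective tissue growth factor, had 20.7, 24.4 and 24.4 CPM with AA2P, against 66.4, 69.4 and 65.5 CPM in control cells. All 3 AA2P libraries were well under the control libraries, and the log2 fold change was -1.53 with a standard error of 0.07.

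CCN1, also known as CYR61 and an adhesive ligand of integrins, went the other way by a small amount. It had 395, 398 and 426 CPM in AA2P libraries and 373, 336 and 369 CPM in control libraries. The groups lay next to each other without overlap, and the log2 fold change was 0.18 with a standard error of 0.05. It was 0.35 with library totals and 0.13 without control library 2, the lowest of the control libraries, where CCN1 was no longer called. The CCN1 locus overlaps that of ZNHIT6 in the RefSeq annotation of Sscrofa11.1, so reads of either gene could have been split between them. ZNHIT6 itself was at 36.4 ± 1.89 CPM with AA2P and 38.6 ± 1.49 CPM in control cells (SD, n = 3 each), and was not called.

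Ratios of counts within a library need no scaling, and they show the CCN genes parting. There were 19.1, 16.3 and 17.5 CCN1 counts for each CCN2 count in AA2P libraries 1 to 3, against 5.62, 4.84 and 5.63 in control libraries 1 to 3. The AA2P ratio was on average 3.29 times the control ratio. The ratio of CCN3 to CCN1 counts was 3.11 ± 0.0414 in AA2P cells and 15.0 ± 0.963 in control cells (SD, n = 3 each). CCN3 and CCN2 stayed closer to each other, with 54.8 ± 3.90 CCN3 counts per CCN2 count in AA2P cells and 79.9 ± 2.15 in control cells. Together CCN1, CCN2 and CCN3 took 0.179% ± 0.00563 of all counts with AA2P and 0.545% ± 0.00234 in control cells, most of it CCN3.

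**Figure D2:**
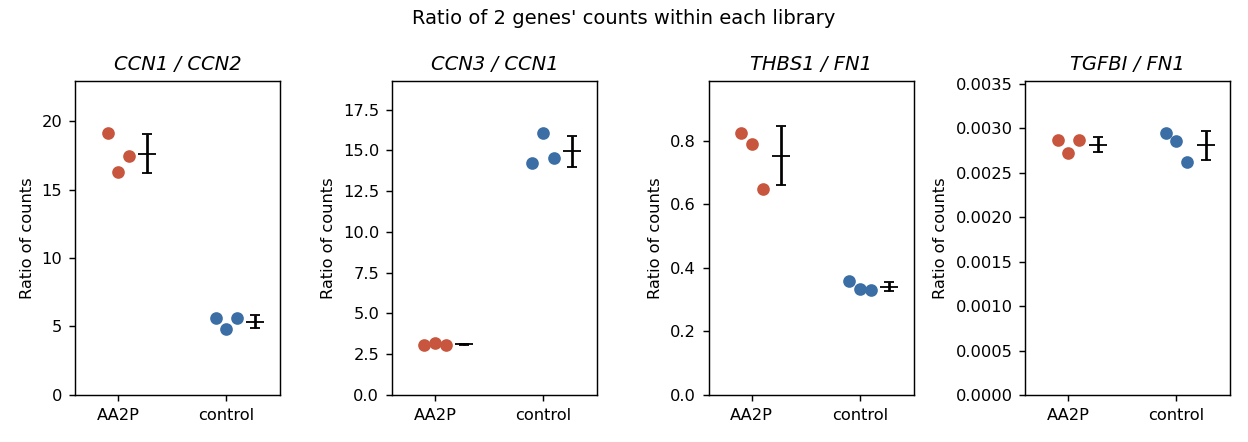
Ratio of the counts of 2 genes within each library (vertical axes, no unit), with AA2P libraries in red on the left, control libraries in blue on the right, and bars for the mean and SD of 3 libraries. The groups are apart for CCN1 over CCN2, CCN3 over CCN1 and THBS1 over FN1, and they overlap for TGFBI over FN1, at 0.00282 with AA2P and 0.00281 in control cells.

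Thrombospondin 1 (THBS1), a trimeric glycoprotein known for activating latent TGF-beta and for restraining blood vessel growth, had 5575, 5779 and 5629 CPM in AA2P libraries and 9135, 9032 and 8434 CPM in control libraries. The groups were apart, and the log2 fold change was -0.65 (standard error 0.05), or 1.57-fold lower with AA2P. This was a smaller difference than that of FN1, so the ratio of THBS1 to FN1 counts was 0.753 ± 0.0931 in AA2P cells and 0.341 ± 0.0152 in control cells (SD, n = 3 each). For THBS1, AA2P library 3 lay between the other two. With library totals the log2 fold change was -0.48.

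SPARC, also called osteonectin, a calcium- and collagen-binding protein that acts in collagen assembly, differed least among the genes that were lower. It had 573, 601 and 575 CPM with AA2P and 753, 765 and 740 CPM in control cells. The groups did not overlap, and the log2 fold change was -0.37 with a standard error of 0.05. With library totals it was -0.20, in the same direction. The SPARC locus overlaps a long non-coding RNA in the RefSeq annotation of Sscrofa11.1.

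Tenascin C (TNC), a hexameric protein of developing and injured tissue that loosens adhesion to fibronectin, showed the largest fold difference of the 9 genes at the lowest counts. It had 45, 49 and 89 counts, or 2.25, 2.43 and 3.66 CPM, in AA2P libraries 1 to 3, against 411, 340 and 415 counts, or 18.5, 18.7 and 20.1 CPM, in control libraries 1 to 3. The log2 fold change was -2.76 with a standard error of 0.14, or 6.76-fold lower with AA2P. AA2P library 3 was 0.64 log2 units above the mean of the other two, and without it the log2 fold change was -3.02. Counting error gives a coefficient of variation of 12.8% in the AA2P libraries, against a measured 27.5%.

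TGFBI, a secreted adhesion protein induced by TGF-beta that binds integrins and collagen, had 19.4, 19.9 and 24.9 CPM with AA2P and 75.2, 77.2 and 67.2 CPM in control cells. Its log2 fold change of -1.76, with a standard error of 0.09, was the closest to that of FN1, and the ratio of TGFBI to FN1 counts was 0.00282 ± 8.55e-05 in AA2P cells and 0.00281 ± 0.000166 in control cells (SD, n = 3 each). EMILIN2, a glycoprotein of the elastic fibre interface, had 275, 276 and 319 CPM with AA2P and 1087, 1032 and 1024 CPM in control cells. Both genes were far below the control range in every AA2P library, and EMILIN2 had a log2 fold change of -1.85 with a standard error of 0.06.

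**Figure D3:**
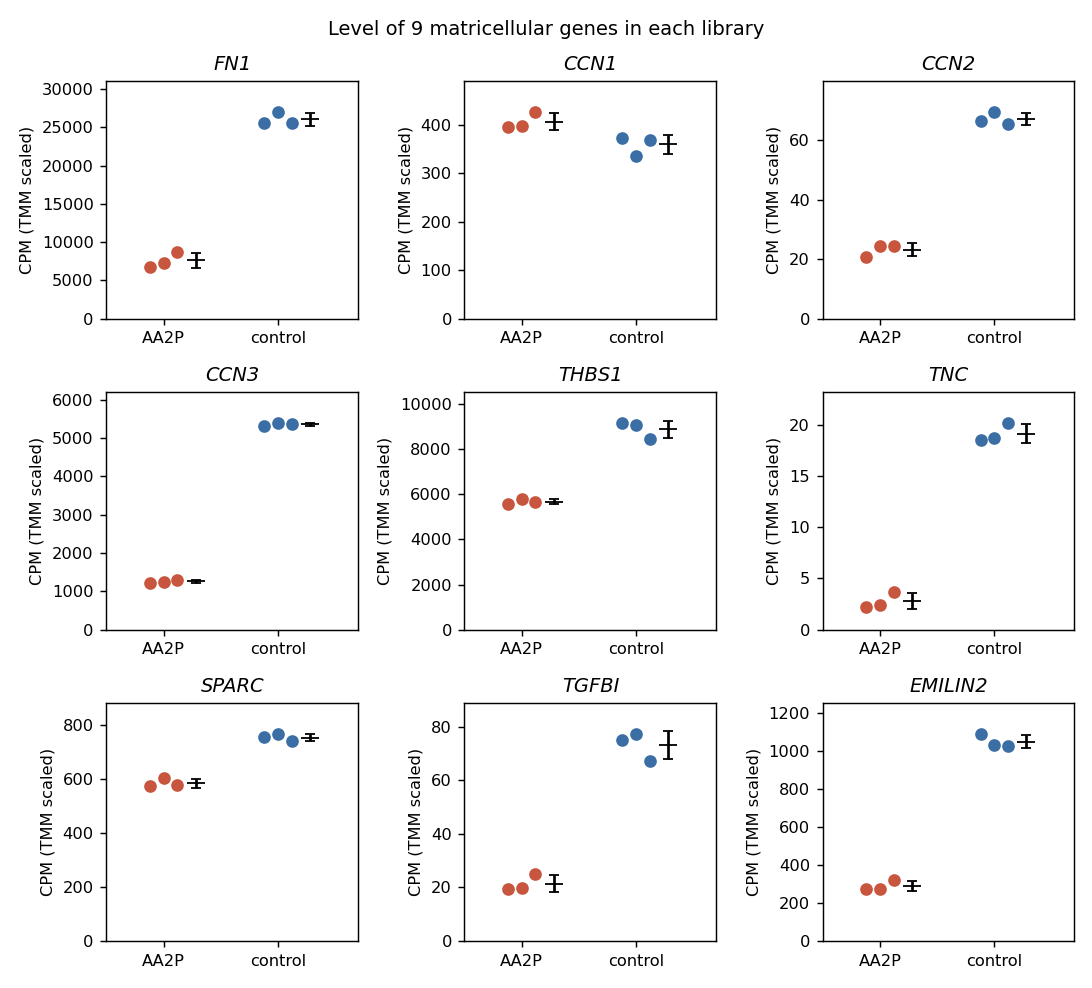
Level (CPM, TMM scaled, linear axes from 0) of 9 matricellular genes in each library, with AA2P libraries in red on the left, control libraries in blue on the right, and bars for the mean and SD of 3 libraries. AA2P libraries lie below control libraries in every panel but that of CCN1, where they lie just above.

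AA2P library 3 was not nearer the controls for every gene. It stood above the mean of AA2P libraries 1 and 2 by 0.64 log2 units for TNC, 0.34 for TGFBI, 0.30 for FN1 and 0.21 for EMILIN2, which is toward the controls. The offset was 0.11 for CCN2 and 0.08 for CCN3, and it was -0.01 for THBS1 and -0.03 for SPARC. For CCN1 the offset was 0.10, which is away from the controls. Without that library the log2 fold change of FN1 was -1.88 and that of EMILIN2 -1.92.

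The genes whose profiles were most like that of FN1 were sought among 2106 genes with a symbol and a mean of at least 100 CPM, by the root mean square distance of log2 CPM over the 6 libraries, centred on the control mean. The nearest were ASNS, an asparagine synthetase, at 0.0793 log2 units, EMILIN2 at 0.0802, the secreted chaperone clusterin (CLU) at 0.0830, the prostaglandin E synthase PTGES at 0.0840 and the kinase MKNK2 at 0.0978. ASNS was at 198 ± 34.9 CPM with AA2P and 722 ± 14.8 CPM in control cells, and CLU at 1302 ± 266 CPM with AA2P and 4230 ± 168 CPM in control cells (SD, n = 3 each). CCN3 lay nearest to tissue factor (F3), at 0.124, and to the collagen prolyl hydroxylase subunit P4HA1, at 0.131, followed by DDIT4 at 0.172, EMILIN2 at 0.173 and PAPSS2 at 0.176. These distances describe likeness in the present libraries, which differ mainly by group.

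The remaining genes of the same families and other matricellular genes went both ways. Of 32 listed genes 18 were tested, and 8 were lower, 4 higher and 6 not called with AA2P in edgeR's Benjamini-Hochberg adjusted test. That is 66.7% called, beside 52.1% of all tested genes. The median log2 fold change was 0.06, opposite in sign to the balance of the calls, and with library totals 7 were lower and 8 higher with a median of 0.23. Another 9 genes were counted but fell under the filter on low counts.

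Among the CCN family, CCN4 fell to 0.401, 0.496 and 0.452 CPM with AA2P, against 2.43, 1.98 and 3.06 CPM in control cells, with a log2 fold change of -2.46, a standard error of 0.28 and an adjusted p of 1.43e-06. These are 8 to 11 counts per AA2P library and 36 to 63 per control library. CCN5, which lacks the last module of the other family members, fell 1.85-fold to 1.47 ± 0.183 CPM with AA2P, against 2.76 ± 0.286 CPM in control cells (adjusted p = 0.0014; SD, n = 3 each). CCN6 was under the filter with 1, 0 and 0 counts with AA2P and 7, 3 and 3 counts in control cells. So of the CCN genes with enough counts, CCN1 alone was not lower.

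The thrombospondin THBS3 fell to 192 ± 11.9 CPM with AA2P, against 306 ± 8.09 CPM in control cells, a log2 fold change of -0.67 beside the -0.65 of THBS1 (adjusted p = 2.26e-08; SD, n = 3 each). THBS4 and COMP, a thrombospondin of cartilage, had no counts with AA2P and at most 1 count in a control library. A count of 0 allows up to 0.123 to 0.150 CPM in the AA2P libraries, which covers counting error only. TNXB, the tenascin of loose connective tissue, rose 1.71-fold to 4.99 ± 1.44 CPM with AA2P, against 2.93 ± 0.359 CPM in control cells (adjusted p = 0.00353), while TNC was lower. The tenascin TNN was under the filter, with 1 to 9 counts with AA2P and 6 to 9 in control cells.

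In the EMILIN and multimerin family the genes also parted. MMRN2, a multimerin best known from the endothelial matrix, fell to 0.300, 0.496 and 0.452 CPM with AA2P, against 11.7, 11.0 and 11.9 CPM in control cells, a 27.2-fold decrease resting on 6 to 11 counts per AA2P library (adjusted p = 8.05e-12). EMILIN1 rose 1.52-fold to 2.58 ± 0.473 CPM with AA2P, against 1.69 ± 0.333 CPM in control cells (adjusted p = 0.029), opposite to EMILIN2. That call was lost without AA2P library 2 and without control library 2 or 3, with edgeR adjusted p of 0.149, 0.0502 and 0.138. DESeq2's Wald test lost it as well, at an adjusted p of 0.0683. Over 14 alternatives the adjusted p of EMILIN1 lay between 0.00605 and 0.149. MMRN1 was at 1.66 ± 0.377 CPM with AA2P and 1.13 ± 0.164 CPM in control cells and was not called (adjusted p = 0.0844). It was called higher with library totals and without AA2P library 3, at log2 fold changes of 0.72 and 0.74 and adjusted p of 0.024 and 0.0219. Over 14 alternatives its adjusted p lay between 0.0219 and 0.255. EMILIN3 had at most 1 count in any library.

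Of the others named by the rule, FSTL1, a secreted SPARC-like glycoprotein, fell to 287 ± 8.58 CPM with AA2P, against 479 ± 3.53 CPM in control cells (SD, n = 3 each). Osteopontin (SPP1), a phosphoprotein that binds integrins, was abundant in both groups and fell to 6616, 7010 and 8067 CPM with AA2P, against 10059, 10090 and 9293 CPM in control cells, a log2 fold change of -0.44 with a standard error of 0.07. FSTL1 and SPP1 kept the AA2P libraries below every control library. Vitronectin (VTN) and the proteoglycan SPOCK2, both at low levels, rose 1.74-fold and 1.45-fold, with adjusted p of 0.00716 and 0.0113 in edgeR's adjusted test. The SPOCK2 call was lost without control library 3, where its adjusted p was 0.0571. Over 14 alternatives that p lay between 0.00145 and 0.0571.

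**Figure D4:**
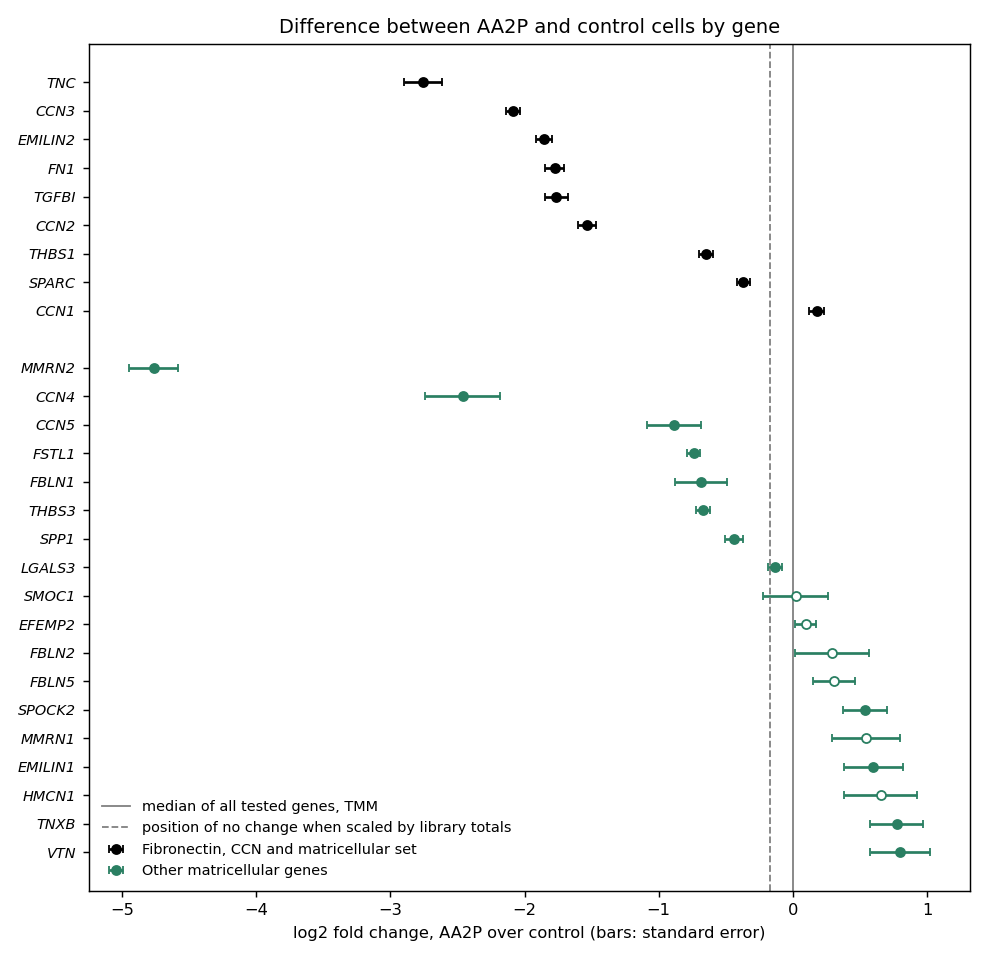
Log2 fold change, AA2P over control, with its standard error (horizontal axis), for the 9 matricellular genes in black and for 18 other matricellular genes in green, where an open point did not pass an adjusted p of 0.05. The black points reach from -2.76 (TNC) to 0.18 (CCN1), and the dashed line marks where no change lies when libraries are scaled by their totals.

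Among receptors of these proteins and enzymes that act on fibronectin, 17 of 21 listed genes were tested, and 11 fell, 1 rose and 5 were not called, with a median log2 fold change of -0.39. That is 70.6% called, where over all tested genes it was 52.1%, with 26.1% lower and 26.0% higher. Scaled by library totals, 10 fell and 6 rose (median -0.22). ITGA5 and ITGB1, whose products form the main fibronectin receptor, fell to 263 ± 56.6 and 658 ± 40.8 CPM with AA2P, against 795 ± 24.3 and 1194 ± 33.5 CPM in control cells (SD, n = 3 each). ITGA8, another chain of receptors for the RGD motif of fibronectin, fell 3.42-fold.

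Transglutaminase 2 (TGM2), which cross-links fibronectin and acts as its co-receptor, had 5.91, 7.09 and 9.08 CPM with AA2P and 31.9, 33.2 and 35.8 CPM in control cells. Its log2 fold change was -2.18 with a standard error of 0.12 (adjusted p = 2.05e-10). PLAUR, the urokinase receptor, which also binds vitronectin, fell 2.97-fold. ITGB8, a chain of a receptor that activates TGF-beta, rose 1.16-fold to 105 ± 7.45 CPM with AA2P, against 90.8 ± 2.11 CPM in control cells (adjusted p = 0.006; SD, n = 3 each).

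Of 14 listed genes of fibres that form on fibronectin 9 were tested, and 5 fell, 1 (EMILIN1) rose and 3 were not called, with a median log2 fold change of -0.50. With so few genes, the 66.7% called lies near the 52.1% of all tested genes (26.1% lower). Scaled by library totals, 5 fell and 2 rose (median -0.33). The latent TGF-beta binding proteins LTBP1, LTBP3 and LTBP4, which tether TGF-beta to the matrix, fell 1.41-fold, 1.84-fold and 1.62-fold. Lysyl oxidase (LOX), which cross-links collagen and elastin, fell to 363 ± 15.4 CPM with AA2P, against 584 ± 16.2 CPM in control cells (SD, n = 3 each). FBLN1, FBLN5 and EMILIN1 are also among the other matricellular genes above. The elastin gene ELN was under the filter in both groups.

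CCN1 and CCN2 serve as standard readouts of the transcriptional pathway YAP-TEAD. Of 20 other listed target genes 15 were tested, and 10 fell, 2 rose and 3 were not called, with a median log2 fold change of -0.29. The called share was 80.0%, beside 52.1% of all tested genes, of which 26.1% were lower and 26.0% higher. Scaled by library totals, 7 fell and 4 rose (median -0.12). Tissue factor (F3) fell 3.81-fold, and CCDC80 fell 2.48-fold. ANKRD1, a nuclear ankyrin repeat protein, had 509, 490 and 530 CPM with AA2P and 971, 1047 and 1029 CPM in control cells (adjusted p = 1.22e-10). MYOF and AXL fell 1.44-fold and 1.37-fold, while LATS2, a kinase that restrains YAP, rose 1.21-fold (adjusted p = 0.0024). TGFB2 rose 1.31-fold, with an edgeR adjusted p of 0.0315 that became 0.146 without AA2P library 1 and 0.0636 to 0.0805 without any one control library. DESeq2's Wald test did not call TGFB2 either, at an adjusted p of 0.08. Its range over 14 alternatives was 0.00325 to 0.146.

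Of 11 tested regulators of that pathway and of SRF 4 rose, 3 fell and 4 were not called, with a median log2 fold change of 0.05. The called share of 63.6% lies near the 52.1% of all tested genes. The coactivator WWTR1, also called TAZ, rose to 35.5 ± 4.67 CPM with AA2P, against 21.0 ± 1.26 CPM in control cells, while YAP1 was at 151 ± 3.99 CPM with AA2P and 184 ± 4.36 CPM in control cells (SD, n = 3 each). TEAD3 rose 1.41-fold and TEAD2 fell by 0.43 on the log2 scale. TEAD4 rose 1.17-fold, with an edgeR adjusted p of 0.0202 that became 0.0675 without AA2P library 2 and 0.0724 without AA2P library 3. Without any one control library the edgeR adjusted p of TEAD4 was 0.0523 to 0.0625. Its range over 14 alternatives was 0.000242 to 0.0724. With library totals 7 rose and 1 fell, and YAP1 and SRF were no longer called, at log2 fold changes of -0.12 and -0.08 with adjusted p of 0.0529 and 0.29, the highest over 14 alternatives for each.

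TGF-beta induces FN1, CCN2, TGFBI and TNC in many cell types. Of its other response genes 15 were tested, and 11 fell, 2 rose and 2 were not called, with a median log2 fold change of -0.57. That is 86.7% called, beside 52.1% of all tested genes, with 26.1% lower and 26.0% higher. Scaled by library totals, 10 fell and 3 rose (median -0.40). COL1A1 and COL1A2 of this list are also among the stromal markers below, and LTBP2 is also among the fibre genes above. SERPINE2, a protease inhibitor, fell 4.42-fold. COL1A2 fell 1.48-fold to 8637 ± 364 CPM with AA2P, against 12793 ± 442 CPM in control cells, and COL1A1 fell to 8.25 ± 2.27 CPM, against 21.0 ± 1.32 CPM in control cells (SD, n = 3 each). SMAD7, an inhibitor that the pathway induces in feedback, fell 1.62-fold and JUNB 1.66-fold. ID2 rose 1.60-fold to 46.7 ± 4.94 CPM with AA2P, against 29.2 ± 0.916 CPM in control cells. SKI rose 1.11-fold with an edgeR adjusted p of 0.029 that became 0.0987, 0.0688 and 0.162 without AA2P library 2, control library 2 and control library 3. With the replicate number as a block in edgeR the adjusted p of SKI was 0.0514. Its range over 14 alternatives was 0.000102 to 0.162.

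**Figure D5:**
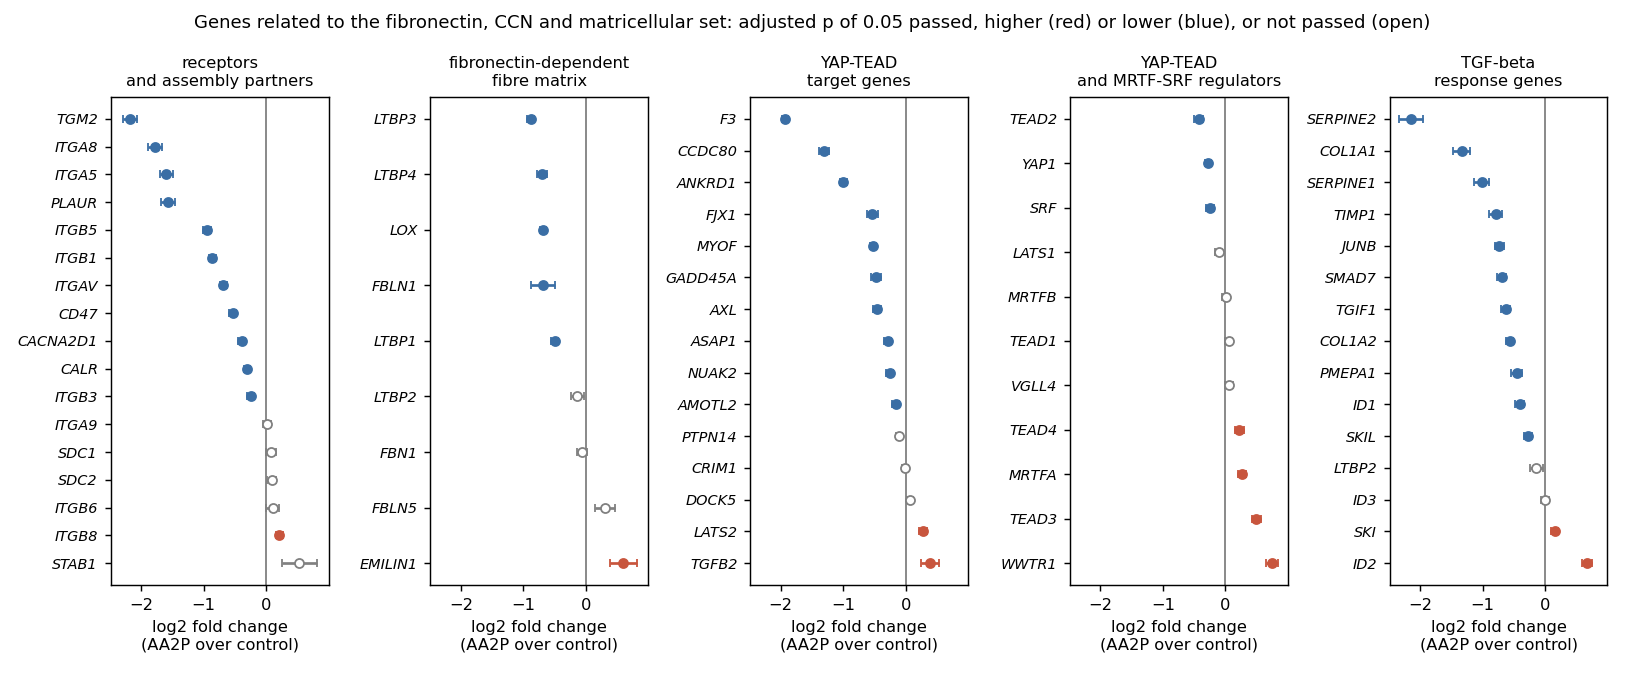
Log2 fold change, AA2P over control, with its standard error (horizontal axes), for the tested genes of 5 lists related to fibronectin and the CCN proteins. Red points rose and blue points fell at an adjusted p of 0.05, and open grey points did not pass, so 11 of 17 receptor and partner genes and 11 of 15 TGF-beta response genes are blue.

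Markers of cell identity differed between the groups in both directions. Over all tested genes, 26.1% were called lower and 26.0% higher. Of 14 Sertoli markers 7 were tested, of which 6 fell and AMH was not called, at 34.5 ± 2.35 CPM with AA2P and 36.4 ± 1.52 CPM in control cells. SOX9 fell to 2.22 ± 0.459 CPM, against 11.6 ± 0.648 CPM in control cells, and WT1 to 23.8 ± 4.20 CPM, against 40.7 ± 4.21 CPM in control cells (SD, n = 3 each). INHA had no counts with AA2P and at most 1 in a control library, and DHH, KITLG and NR5A1 were under the filter too. GATA4, FSHR and CLDN11 could not be found by symbol. The summed level of the Sertoli list, most of it VIM, ran from 3993 to 4939 CPM with AA2P and from 9998 to 10527 CPM in control cells. Of 8 tested renal and mesonephric tubule markers 7 rose, among them PAX2, to 134 ± 6.78 CPM with AA2P, against 98.7 ± 3.32 CPM in control cells. EMX2 fell, to 23.25 ± 3.24 CPM with AA2P, against 38.0 ± 2.38 CPM in control cells. PAX8 and LHX1 matched no gene in the table. The sum of the tested tubule markers ran from 1034 to 1347 CPM with AA2P and from 373 to 419 CPM in control cells. Of that sum LRP2 gave 638 ± 144 CPM with AA2P and 80.1 ± 14.0 CPM in control cells (SD, n = 3 each). Some Sertoli markers were thus near 0 in both groups, while tubule markers were counted in both. Whether the cells match their label was not tested.

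Fibroblasts and peritubular cells are strong sources of fibronectin, SPARC and tenascin in tissue, and their listed markers ranged from near 0 to abundant. Of 9 stromal markers 3 were tested and all fell, all collagen chains, with a sum of 8447 to 9100 CPM with AA2P and 12421 to 13302 CPM in control cells that was nearly all COL1A2. The symbols DCN, LUM, THY1 and TCF21 matched no gene in the table, so their levels are not known here. COL3A1 was at 35.5 ± 4.97 CPM with AA2P and 74.8 ± 1.41 CPM in control cells. PDGFRB had at most 1 count in any library. ACTA2 had 2 to 10 counts with AA2P and 2 to 8 in control cells, and MYH11 was under the filter. TAGLN was at 307 ± 25.2 CPM with AA2P and 375 ± 5.44 CPM in control cells, MYLK at 187 ± 9.26 CPM with AA2P and 144 ± 4.59 CPM in control cells, and DES at 8.35 ± 1.83 CPM with AA2P and 39.1 ± 1.92 CPM in control cells (SD, n = 3 each). The list of 6 smooth muscle markers had 2 genes higher and 2 lower, with sums of 469.6 to 538 CPM with AA2P and 553 to 563 CPM in control cells. Over all tested genes 26.1% were lower and 26.0% higher, and the stromal and smooth muscle lists held too few tested genes to compare with those shares. The summed levels of the endothelial, macrophage, Leydig and germ cell lists reached at most 8.08, 22.7, 7.38 and 0.411 CPM with AA2P and 2.98, 29.8, 5.84 and 0.437 CPM in control cells. These sums cover only 3, 3, 3 and 2 genes of the 6 in each list. The other symbols, CDH5, PTPRC, CYP11A1 and DAZL among them, matched no gene in the table. Low sums therefore do not show that these cell types were absent. The part of cell identity or cell makeup in the values of the matricellular genes was not tested.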

How the data were processed

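Per the labels' protocols, total RNA of 3 AA2P and 3 control samples was extracted with TRIzol, and 1 HiSeq X-Ten lane carried all the libraries. The submitters' processing notes name bcl2fastq and HISAT2 2.0.5. Not given in the sources used here are the counting tool, its strand setting, the annotation and the build, so no coordinates are printed and overlapping genes are uncertain. The authors deposited whole-number counts per pig Ensembl gene, not normalized. Symbols came from a table of gene names (13141 of 17670 genes).

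Counts were tested in R 4.3.3 with edgeR 4.0.16 (quasi-likelihood F test, TMM factors, filterByExpr, group only, Benjamini-Hochberg adjustment over 12701 genes, threshold 0.05). Each standard error is the size of the log2 fold change divided by the root of its F statistic. Library totals ran from 18747307 to 23521291, and 3 counts, the most a count of 0 allows, correspond to 0.123 to 0.165 CPM. On simulated counts for AA2P against control (12405 genes), 39 of 50 genes with a log2 change of 0.5 were recovered, 49 of 50 with 1 and 50 of 50 with 2 and with 3, and 5.05% of the calls were false. The simulation gave 198 calls, against 6615 in the data, and used the same dispersions for both groups. It also left out the choice of scaling, so 5.05% is not the share of false calls in the data.

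The genes and the related lists (other matricellular genes, receptors and partners, fibre matrix, YAP-TEAD targets, YAP-TEAD and SRF regulators, TGF-beta response, and Sertoli, stromal, smooth muscle, endothelial, macrophage, Leydig, germ cell and renal tubule markers) were chosen with earlier results of these data known. Named were the set itself, up to 5 called genes of each related list in each direction by smallest p, the CCN, thrombospondin, tenascin and EMILIN families, the 5 genes likest to FN1 and to CCN3, and fixed markers, not all of which are reported here. CCN6, VIM, ELN, COMP, MYH11, FBLN5, COL3A1, TAGLN, MYLK, DES, DHH, KITLG, NR5A1, EMX2, LRP2 and ZNHIT6 were added after seeing their values. Alternatives were other scalings and filters, DESeq2 1.42.0, limma-voom in limma 3.58.1, the replicate number as a block and leaving out each library.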

Additional observations from a re-analysis of the deposited data

How the results depend on the processing

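For each of the 9 genes 14 alternatives were tried, 126 values in all. Of these, 125 kept their direction and their side of the threshold, and 1, CCN1 without control library 2, kept its direction only. The genes were selected on their differences in these same libraries, so this count describes how the values depend on the processing. It is no test of the differences. Over these alternatives the log2 fold change of FN1 lay between -1.88 and -1.61, that of CCN3 between -2.11 and -1.92, that of TNC between -3.02 and -2.59, that of SPARC between -0.39 and -0.20 and that of CCN1 between 0.13 and 0.35. TMM factors taken from all other genes gave 3301 genes higher and 3317 lower.

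Library totals moved the most counts, to 5727 genes higher and 1822 lower, and to 8 other matricellular genes, 6 receptor and partner genes, 2 fibre matrix genes, 4 YAP-TEAD targets and 7 regulators higher, with 1 regulator lower. That scaling turned AMH to a log2 fold change of 0.0941, still not called. DESeq2's Wald test called 0 fibre matrix genes and 1 YAP-TEAD target higher, where edgeR called 1 and 2. Each group took 3 libraries, and leaving out each in turn gave 2869 to 3438 genes higher and 2845 to 3437 lower. It gave 2 to 6 other matricellular genes, 1 to 3 receptor and partner genes, 0 to 1 fibre matrix genes, 1 to 2 YAP-TEAD targets and 1 to 2 TGF-beta response genes higher. The cause of these shifts was not tested.

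The replicate numbers shared by the groups gave no sign of pairing: deviations from the group means of same-numbered libraries correlated at -0.04, -0.02 and -0.06. With 3 libraries per group, these correlations cannot exclude a pairing. With the replicate block 3094 genes were higher and 3110 lower, and 1 TGF-beta response gene was higher.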
